A study of Mus musculus with 12 samples.

Results

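The genes described here encode the proteins of the cytosolic ribosome. They were taken from the table of retinal expression by symbol, as the autosomal protein-coding genes named Rpl, Rps or Rplp followed by a digit, together with Rpsa. Kinases of the Rps6k family were left out. The rule found 138 members among the 37991 genes of the table, on 18 chromosomes and most often on chromosome 7, with 14 members. Of these, 82 carried a plain symbol and 56 carried the suffix -ps, which marks a copy first named as a pseudogene. Sorted by the prefix of the symbol, with paralogs included, the plain symbols comprised 49 of the large subunit, 32 of the small subunit, and Rps19bp1. Rps19bp1 encodes a binding partner of the Rps19 protein and is not a subunit. X-linked genes of the ribosome were outside the rule.

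Retinas of male mice aged 8 weeks were profiled by RNA-seq in 12 libraries, 3 per group, each pooling 6 to 8 retinas. The parental groups were F0 C57BL/6J and F0 Cast/EiJ, inbred strains of the common laboratory mouse and of a wild-derived subspecies. The reciprocal hybrids were F1 B6xCast, sired by C57BL/6J and borne by Cast/EiJ dams, and F1 CastxB6, sired by Cast/EiJ and borne by C57BL/6J dams. No animal was treated, and every animal carried its strain's own alleles. The groups address how far a strain difference in expression also appears between the alleles within a hybrid, where both alleles share the same cells, and whether an allele's level depends on the parent that transmitted it.

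The ribosome joins a large and a small subunit, each a scaffold of ribosomal RNA with many small basic proteins, and every nucleated cell needs it to translate messenger RNA. The genes for these proteins are short, highly and broadly transcribed, and translated together under the control of the mTOR kinase through a pyrimidine tract at the start of their transcripts. In mammals their abundant transcripts have been copied back into the genome many times, which left numerous intronless processed copies whose sequence is close to that of the parent gene. The retina consists mostly of rod photoreceptors, which renew their light-sensing outer segments throughout life and therefore keep up heavy protein synthesis.

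Some copies were nearly identical to their parent gene, as shown by stretches in which a member and its copies differ (NCBIM37, GENCODE vM1 transcripts, C57BL/6J reference, 5′ to 3′ on the coding strand, capitals marking the bases that differ among the sequences of a set). Rps18, a protein of the head of the small subunit, was set beside 2 intronless copies on chromosome 13. Rps18 lies at chr17:34089166-34089225 on the minus strand, Gm10260 at chr13:98530161-98530220 on the minus strand and Gm11361 at chr13:28349828-28349887 on the plus strand.
Rps18: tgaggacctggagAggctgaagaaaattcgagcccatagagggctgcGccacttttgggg
Gm10260: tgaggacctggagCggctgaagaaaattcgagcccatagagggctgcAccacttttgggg
Gm11361: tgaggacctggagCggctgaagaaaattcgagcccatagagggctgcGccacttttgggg
Rpl3 (chr15:79912930-79912989, minus strand), whose protein contributes to the peptidyl transferase centre, was set beside its X-linked copy Rpl3-ps1 (chrX:12779724-12779783, plus strand).
Rpl3: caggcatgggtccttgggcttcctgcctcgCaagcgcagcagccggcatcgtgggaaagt
Rpl3-ps1: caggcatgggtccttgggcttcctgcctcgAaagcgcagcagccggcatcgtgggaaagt
Rps3a (chr3:85942405-85942464, minus strand), a small subunit protein, was set beside Gm10119 (chr14:88522943-88523002, minus strand).
Rps3a: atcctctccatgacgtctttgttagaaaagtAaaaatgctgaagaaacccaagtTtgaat
Gm10119: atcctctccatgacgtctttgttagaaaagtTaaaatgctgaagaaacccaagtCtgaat
Rps6 (chr4:86500743-86500802, minus strand), the small subunit protein phosphorylated by S6 kinases, was set beside Gm13654 (chr2:75029267-75029326, minus strand) and the X-linked Gm8172 (chrX:66858808-66858867, minus strand).
Rps6: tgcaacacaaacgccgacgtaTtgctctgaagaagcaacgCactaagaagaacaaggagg
Gm13654: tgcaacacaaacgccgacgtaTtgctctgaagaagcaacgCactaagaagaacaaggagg
Gm8172: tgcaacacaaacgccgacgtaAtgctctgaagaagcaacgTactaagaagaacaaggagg
Rps27 (chr3:90017164-90017223, minus strand), a zinc finger protein of the small subunit, was set beside Gm9846 (chr9:114891760-114891819, minus strand), with which it is identical throughout its coding sequence.
Rps27: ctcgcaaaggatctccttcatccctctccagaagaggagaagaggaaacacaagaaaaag
Gm9846: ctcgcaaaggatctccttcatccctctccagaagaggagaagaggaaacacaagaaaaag
Over the whole coding sequence, Rps18 differed from Gm10260 at 4 of 456 bases, Rpl3 from Rpl3-ps1 at 2 of 1209 bases and Rps3a from Gm10119 at 4 of 792 bases. Rps6 differed from Gm13654 at 0 of 747 bases and from Gm8172 at 6 of 747 bases.

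Such sharing was far more frequent among the members than among other genes. Transcripts were cut into every possible stretch as long as a read, and a gene was said to have a sharing gene when at least 10% of the stretches of the gene with fewer of them were identical in both. Of the 81 plain-symbol members with transcripts in the annotation, 63 (77.8%) had a sharing gene, against 19.2% of 21234 other autosomal protein-coding genes. Nuclear genes for mitochondrial ribosomal proteins, which work in a separate ribosome, had one in 19 of 77 cases. In all, 254 genes outside the rule shared stretches with members; 174 were annotated as pseudogenes, 72 as protein-coding, and 26 lay on the X chromosome. These counts describe the C57BL/6J reference, and the Cast/EiJ sequence was not used here.

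A pair of measures was available for every gene. Count equivalents are the estimate of fragments per gene that the authors obtained with MMSEQ, which assigns each read pair over all transcripts it fits, and which they normalized so that every column held a similar total (12648792 to 13843914). Unique hits are the raw number of read pairs that fit a single gene, and in hybrids a single allele of a single gene; they totalled 8158534 to 12363291 per library. In F1 libraries every gene has 1 value per allele on both measures. Unique hits per count equivalent show how much of an estimate rested on reads that fit nowhere else. The median over 85 members with at least 10 count equivalents was 0.498 in the F0 libraries, against 0.775 for other protein-coding genes. In the F1 libraries it was 0.222 over 80 members, against 0.464. In the F1 libraries, 27 of 80 members (33.8%) had fewer than 0.1 unique hits per count equivalent, as did 7.57% of other protein-coding genes. Among plain-symbol members with at least 100 count equivalents, the lowest ratio over all libraries belonged to Rpl17, a protein that lines the tunnel of the nascent chain, with 0.00815 in F0 and 0.0174 in F1. The highest ratios belonged to Rps19bp1, Rps3 and Rpl7l1. The posterior SD that MMSEQ gives for the natural log of each estimate had a median of 0.0375 over members in F0 and 0.0676 in F1, against 0.0796 and 0.0983 for other protein-coding genes. Its upper quartile in F1 was 0.408 over members and 0.189 over the others. In 21 members, 19 of them with -ps symbols, no unique hit was counted in any column.

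The labelled tissue was visible in the marker genes. The rod genes Sag, Gnat1, Pde6b and Nrl summed to 304700 to 371200 count equivalents per library, and markers of cones, bipolar cells, Mueller glia, amacrine and ganglion cells were all above 0. Markers of retinal pigment epithelium (3 genes) summed to 32.2 to 111 count equivalents, those of lens to 6.93 to 209 and those of blood to 215 to 621. Cone markers summed to 5500 to 6680 in F0 Cast/EiJ and to 8210 to 10030 in F0 C57BL/6J, ganglion cell markers to 4984 to 5643 and to 7562 to 8519, and amacrine markers to 7968 to 8558 and to 5669 to 6785. All 3 genes of each of these lists were detected. Their part in the strain differences given here was not tested, and in whole retina fewer cells of a type and less RNA per cell cannot be told apart.

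Levels of the plain-symbol members are compared in units like FPKM, which divide by transcript length. Over the 75 averaging 100 count equivalents or more, F0 levels ran from 4.758 to 676.5 with a median of 119.2. The highest levels belonged to Rplp1, an acidic protein of the stalk that recruits elongation factors (676.5), Rps24 (499.3), Rpl41, the smallest protein of the large subunit (385.0), and Rps29 (315.0). The lowest of the 75 was Rpl27 at 4.758. Most proteins of a ribosome are present in a single copy each. Rpl27 shared 374 of the 375 stretches of its copy Rpl27-ps3, which was at 161.6 in the same units. Rps27 was listed at 0.003765, while Gm9846 held 1020, 1190 and 1540 count equivalents in F0 C57BL/6J and 1240, 1400 and 1440 in F0 Cast/EiJ.

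The members together held 0.794, 0.973 and 1.06% of the count equivalents in the F0 C57BL/6J replicates and 0.644, 0.794 and 0.851% in F0 Cast/EiJ. In F1 B6xCast they held 0.756, 1.07 and 1.04%, and in F1 CastxB6 1.04, 0.954 and 0.952%. The F0 groups overlapped, and their means were 0.941 ± 0.134% and 0.763 ± 0.107% (SD, n = 3 each). When the sharing genes were added, the means were 1.09 ± 0.151% in F0 C57BL/6J and 1.07 ± 0.143% in F0 Cast/EiJ, and the F0 groups overlapped. Counted on unique hits, the members' shares were 0.62 ± 0.0917% and 0.516 ± 0.0616%.

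**Figure D1:**
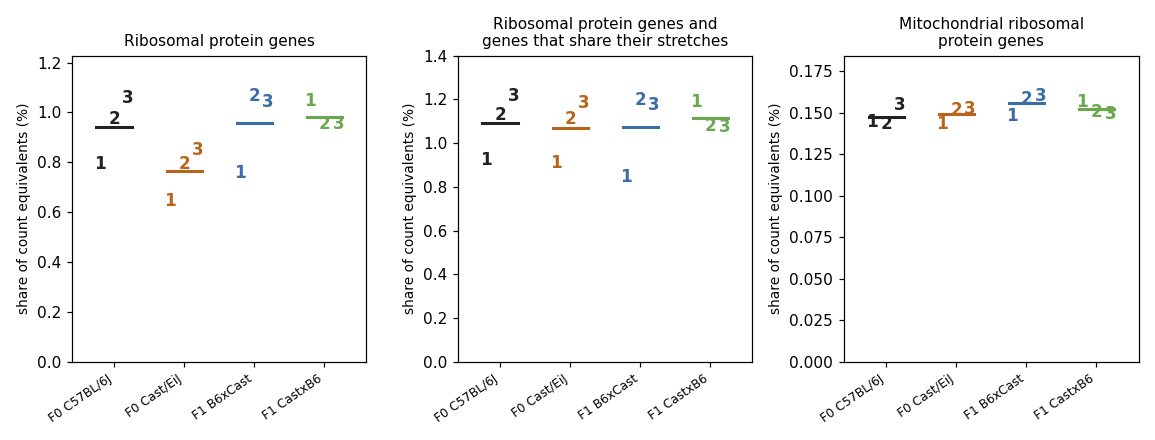
Share of count equivalents (%) per library for the ribosomal protein genes, for these genes with the genes that share their stretches, and for the mitochondrial ribosomal protein genes. Numerals mark replicates 1 to 3 of each group and horizontal lines the group means; F0 Cast/EiJ lies lowest on the left and close to F0 C57BL/6J in the middle panel.

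Replicate 1 stood apart in 3 of the 4 groups. Among the 78 plain-symbol and -ps members averaging 100 count equivalents or more, replicate 1 was the lowest in 71 in F0 C57BL/6J, in 63 in F0 Cast/EiJ and in 71 in F1 B6xCast, but in only 3 in F1 CastxB6. The median member was lower in replicate 1 than in the mean of the other replicates by -0.375, -0.334 and -0.462 on the log2 scale in the first 3 groups, and higher by 0.116 in the fourth. Proteasome subunit genes, another set of housekeeping genes with fixed stoichiometry, were lowest in replicate 1 in 27, 26, 30 and 4 of 33 cases. Mitochondrial ribosomal protein genes were lowest there in 31, 40, 45 and 12 of 71 cases. The labels give no batch that these libraries share.

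Between the F0 strains, cytosolic ribosomal protein genes were mostly lower in Cast/EiJ where they differed at all. On count equivalents (limma, adjusted p under 0.05 over 14452 autosomal genes), 26 of 85 tested members were called, 3 higher and 23 lower in Cast/EiJ. Over all genes 33.8% were called, 17.2% higher and 16.6% lower. The 30.6% of members called was near this background, while 27.1% were lower and 3.53% higher. The number higher was not stable. Without F0 Cast/EiJ replicate 1, 32 members were called, 9 higher and 23 lower, beside 4236 of 14452 genes. With replicate 1 of both strains left out, 38 were called, 9 higher and 29 lower, beside 4626 genes. With all libraries, the median log2 difference was -0.0635 over the members and 0.0318 over all genes. By subunit, 11 of 46 large subunit genes and 10 of 31 small subunit genes were lower and none was higher, and the remaining 5 calls were -ps symbols.

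The largest of these differences belonged to genes with near-identical copies. Rps18 was at 1270, 1640 and 1780 count equivalents in the F0 C57BL/6J replicates and at 53.5 and 79.4 in replicates 1 and 3 of F0 Cast/EiJ, whose mean was 78.0 ± 23.8 (SD, n = 3). The strains did not overlap, with a log2 difference of -4.34 ± 0.22 (SE, limma adjusted p = 1.14e-06). The copy Gm10260 held 806, 1060 and 1190 and Gm11361 held 395, 449 and 489 in the F0 Cast/EiJ replicates, and both stood near 0 in F0 C57BL/6J. The sum of the 3 genes differed by -0.02 ± 0.15 between strains. Rpl7a, a large subunit protein, was at 1870, 2340 and 2540 in F0 C57BL/6J and at 108, 149 and 132 in F0 Cast/EiJ (-4.11 ± 0.15). In F0 Cast/EiJ, its copies Rpl7a-ps11 on the X chromosome, Gm16477 and Gm5619 held 538 to 679, 556 to 699 and 618 to 1000, and in F0 C57BL/6J each held less than 5. The sum differed by -0.03 ± 0.14.

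Rpl21 was the large subunit gene with the widest difference, at 2040, 2280 and 2590 in F0 C57BL/6J and 63.2, 65.9 and 63.0 in F0 Cast/EiJ (-5.14 ± 0.10). Its copy Gm10163, which differs from it at 2 of 480 coding bases, held at most 677 in F0 C57BL/6J against 2800, 3360 and 3630 in F0 Cast/EiJ. Rps2, a small subunit protein at the entry of the messenger RNA channel, was at 2350, 2230 and 2330 against 216, 124 and 181 (-3.76 ± 0.17), and its X-linked copy Rps2-ps13 was at 165, 243 and 213 against 2160, 1950 and 2230. For Rpl3 the values were 3590, 4540 and 5000 against 1660, 2210 and 2380 (-1.07 ± 0.15), with Rpl3-ps1 at up to 5.69 in F0 C57BL/6J and at 2180, 2460 and 2640 in F0 Cast/EiJ. Rps3a was at 1730, 2280 and 2670 against 906, 1080 and 1190 (-1.06 ± 0.16), with Gm10119 at up to 1.48 against 739, 1180 and 1160. In each of these 4 genes the parental groups were separate, and the copy was high in the strain in which the gene was low. Summed with their sharing genes, Rpl21, Rps2, Rpl3 and Rps3a differed between strains by 0.11, -0.04, 0.05 and -0.09.

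**Figure D2:**
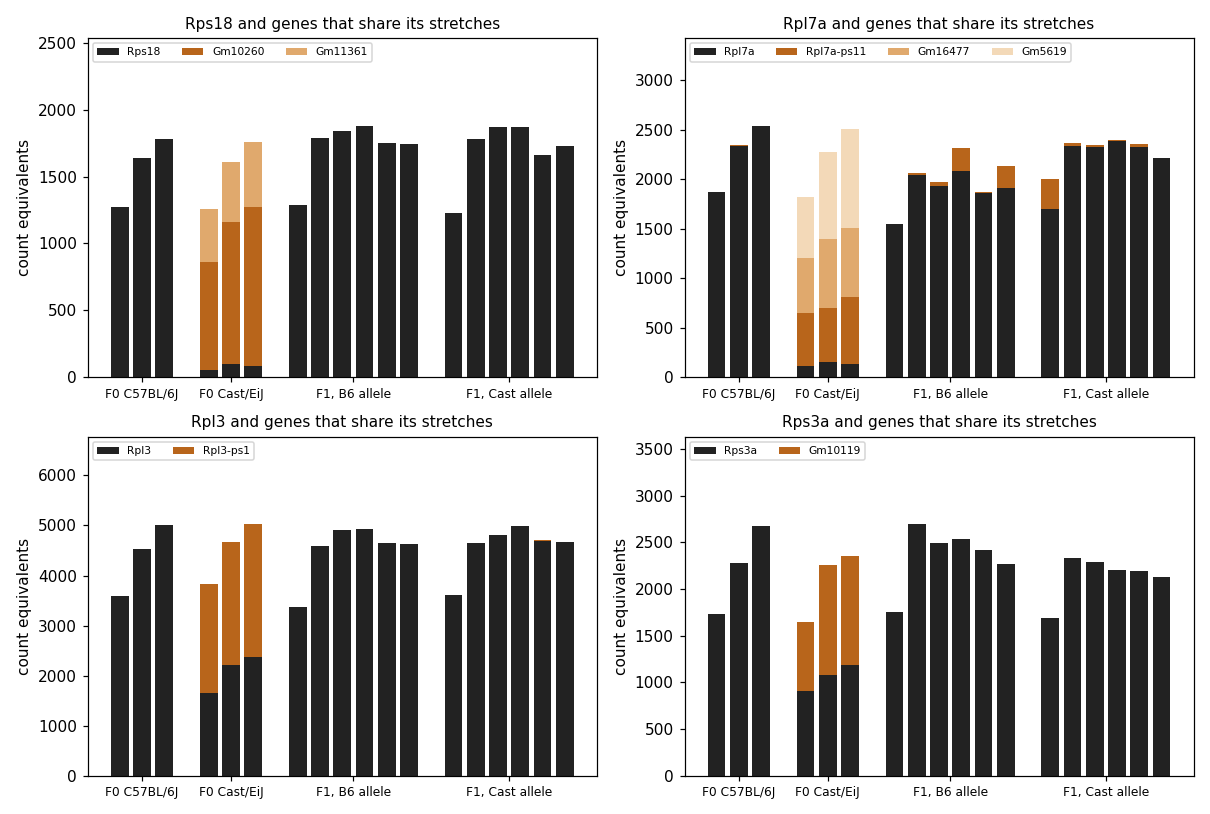
Count equivalents of Rps18, Rpl7a, Rpl3 and Rps3a (black) stacked with those of genes sharing their stretches (browns), 1 bar per F0 library and 1 per allele of each F1 library. With the copies added the F0 Cast/EiJ bars overlap in range with the F0 C57BL/6J bars, and in the hybrids no copy shown exceeds 299 on either allele.

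Copies seen in a single strain recurred for other members, whether or not the member itself was lower. Counting copies at no more than 5 count equivalents in every F0 library of one strain and at least 100 in every F0 library of the other, 24 copies were seen only in F0 Cast/EiJ and 1 only in F0 C57BL/6J. Only sharing genes of members were searched, 254 of them outside the symbol rule. How many of all genes meet these limits was not counted, so the counts have no background to be set against. The 24 copies shared stretches with 25 members, among them Rpl34 (Rpl34-ps1), Rpl35a (Rpl35a-ps2), Rpl28 (Rpl28-ps3), Rpl17 (Rpl17-ps5), Rpsa (3 copies) and Rplp0 (Gm8730), all of which were lower in F0 Cast/EiJ on count equivalents. Others of the 25 overlapped between the strains, such as Rpl15 at 452, 540 and 551 against 760, 548 and 679, Rps12 at 575, 1250 and 977 against 684, 1250 and 1260, and Rpl27a at 246, 196 and 257 against 227, 242 and 226 count equivalents. The single copy of the other kind was Gm13654, which is identical to Rps6 over the coding sequence and held 1960, 1580 and 1510 count equivalents in F0 C57BL/6J. Rps6 itself was at 843, 1260 and 1730 in F0 C57BL/6J and at 977, 1100 and 1260 in F0 Cast/EiJ, where the copy Gm8172 on the X chromosome held 1770, 1690 and 1860. The strains overlapped in Rps6 and it was not called (limma adjusted p = 0.644).

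Summing each gene with its sharing genes removed most of the calls. This setting was chosen after the data were seen. With sums, 7 of 85 members were called, 2 higher and 5 lower, while 33.3% of all genes were called, 16.8% higher and 16.5% lower. Of the 26 members called on their own count equivalents, 6 remained called and 20 did not. Rpl29 was among the 6, but turned from lower to higher. On sums, 22 of the 26 differed by less than 0.5 on the log2 scale. The median absolute log2 difference of the 26 went from 1.60 to 0.139. A sharing gene was present in 23 of the 26. Among members with a sharing gene 23 of 69 had been called, among those without 3 of 16.

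**Figure D3:**
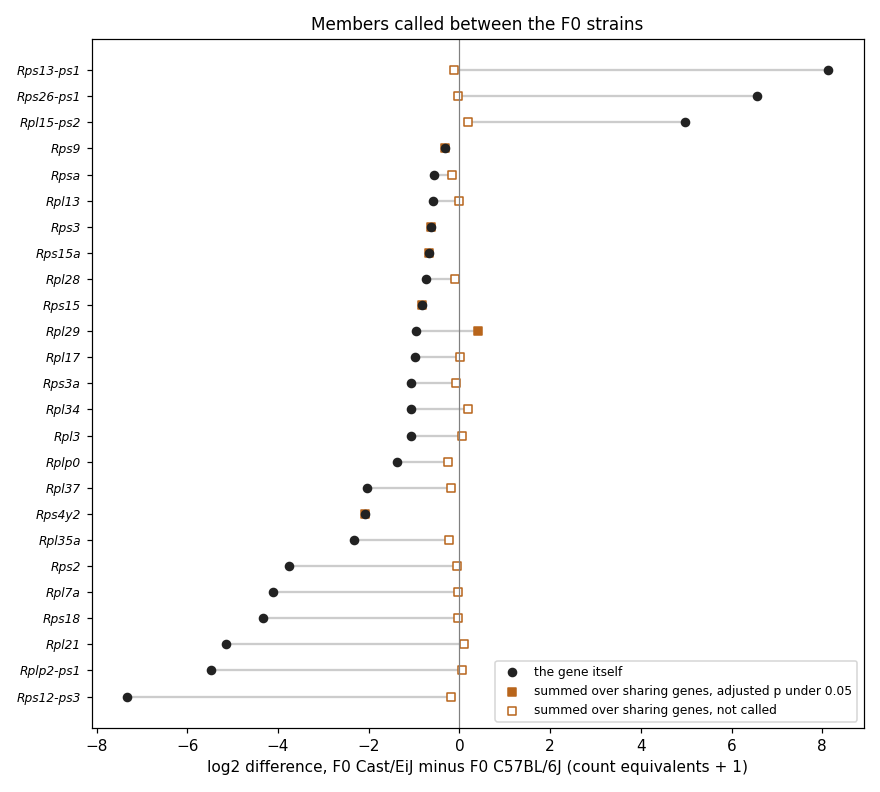
Log2 difference of the F0 strains, Cast/EiJ minus C57BL/6J, on count equivalents plus 1 for 25 of the 26 called members, for the gene itself (black circles) and for its sum with the sharing genes (squares, filled where the adjusted p was under 0.05). After summing most values lie near 0, while Rps15, Rps9 and Rps4y2 have no sharing gene to add and those of Rps15a and Rps3 added almost nothing, so their symbols coincide.

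The 5 genes lower on sums were small subunit genes to which summing added little or nothing. Rps15, Rps9 and Rps4y2 have no sharing gene, and the sharing genes of Rps3 and Rps15a added less than 1% in every column, so their sums are no further test. Rps15, which sits near the decoding centre, was lower by -0.83 ± 0.18, Rps15a by -0.67 ± 0.21, Rps3, which has a further role in DNA repair, by -0.63 ± 0.12, and Rps9 by -0.31 ± 0.083 (limma adjusted p = 0.00714, 0.0327, 0.00325 and 0.0168). On its own count equivalents Rps9 lost its call without F0 C57BL/6J replicate 3 (-0.25) or F0 Cast/EiJ replicate 2 (-0.28). Rps4y2, an autosomal relative of X-linked Rps4x, was lower by -2.07 ± 0.17 (adjusted p = 2.58e-05). It was at 339, 463 and 403 count equivalents in F0 C57BL/6J and at 77.4, 90.4 and 118 in F0 Cast/EiJ, and carried no exonic difference between the strains, so that its alleles could not be compared. The higher genes were Rpl35 (0.39 ± 0.12, adjusted p = 0.0302), not called on its own count equivalents, and Rpl29 (0.41 ± 0.069, adjusted p = 0.00185), which had been lower by -0.97 ± 0.076 on its own. Rpl29 shared stretches with 13 genes and Rpl35 with 4, not all of them ribosomal, such as Uimc1 for Rpl29. Rps15, Rps15a and Rps4y2 were named after their values were seen.

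Unique hits gave more strain differences, again mostly lower. In edgeR, 33 of 82 members were called, 7 higher and 26 lower, beside 37.9% of 13871 genes, 17.5% higher and 20.5% lower. The number higher fell to 3 without F0 C57BL/6J replicate 2 or F0 Cast/EiJ replicate 3. Count equivalents and unique hits gave calls in the same direction for 22 members, and in opposite directions for 0. Unique hits alone gave 11 calls, and count equivalents alone 3. Rpl28 and Rpl17 were among the latter: Rpl28 was at 1700, 2020 and 2030 against 1010, 1160 and 1280 count equivalents (-0.74 ± 0.11), but at 198, 210 and 223 against 214, 167 and 213 unique hits (0.22 ± 0.13, edgeR adjusted p = 0.2). Measures differed by more than 1 log2 unit for 3.66% of members and 1.04% of other genes. The widest gaps were those of Rpl29, whose difference was -0.97 on count equivalents and -2.95 on unique hits, and Rpl7a, with -4.11 and -2.27. Unique hits are not corrected for how much of a gene is unique in each strain's transcriptome.

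Within the hybrids, Cast and B6 alleles were compared over 69 members with enough allele-specific reads. On count equivalents, 31 were called by limma, 17 with a higher and 14 with a lower Cast allele. This was close to the background of 47% of 13414 genes, 23.5% higher and 23.5% lower, but the members' share depended on the fit. On within-library allele ratios of the F1 libraries alone, 43 members were called, 23 higher and 20 lower, beside 6079 of 13414 genes. The first model, without replicate 1 of F0 C57BL/6J, F0 Cast/EiJ and F1 B6xCast, called 42, beside 6529 genes. On unique hits edgeR called 45, 27 higher and 18 lower, beside a background of 45.4%, 22.8% higher and 22.6% lower. Median log2 differences over members were 0.00302 and 0.0583.  The measures differed by more than 1 log2 unit for 27 of 69 members (39.1%), against 142 of 13345 other genes (1.06%).

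**Figure D4:**
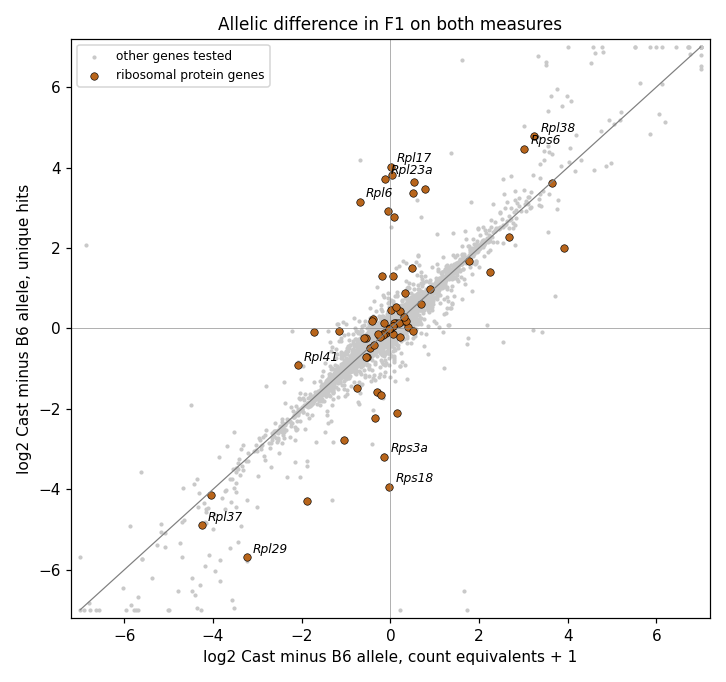
Log2 difference between the Cast and B6 alleles in F1 retinas on count equivalents (x axis) and unique hits (y axis) for 69 ribosomal protein genes (brown) and all other genes tested (grey). Other genes lie along the diagonal, many members lie above or below it near 0 on the x axis, and 39 other genes beyond 7 in either direction are drawn at the edge.

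A group of members had equal alleles on count equivalents and very unequal unique hits. Rps18 had 1290 to 1880 count equivalents on the B6 allele (median 1770) and 1230 to 1870 on the Cast allele (median 1755), a log2 difference of -0.02 ± 0.13. Its unique hits were 999 to 1755 on the B6 allele (median 1458) and 82 to 107 on the Cast allele (median 87.5), a difference of -3.95 ± 0.099 without overlap. In Rps3a, with a median of 2455 and 2195 count equivalents, unique hits had medians of 848.5 and 86 (-3.20 ± 0.10). The opposite held for Rpl23a, a large subunit protein at the tunnel exit, with medians of 3010 and 2680 count equivalents but 87.5 and 1064 unique hits (3.72 ± 0.095). Rpl17, Rpl28 and Rpl9 resembled Rpl23a, with differences of 4.02, 3.80 and 2.92 on unique hits and 0.00, 0.05 and -0.06 on count equivalents. Rpl6 was called in opposite directions. Its Cast allele was lower on count equivalents (median 1740 against 2815, -0.69 ± 0.072) and higher on unique hits (median 216 against 24, 3.15 ± 0.13), and it was the only such member.

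Other members were unequal on both measures. Rpl37 had 601 to 1120 count equivalents on the B6 allele (median 955) and 38.6 to 61.0 on the Cast allele (median 43.1), at -4.26 ± 0.15, with unique hits at -4.90 ± 0.13. Its sharing gene Gm13826 held 1120 to 2630 on the B6 allele and at most 1.02 on the Cast allele, so the sum was even more unequal, at -5.95 ± 0.20. Rpl21 was at -4.05 ± 0.072 and -4.15 ± 0.08. In the other direction, Rpl38, whose mutation in mice alters the axial skeleton, had 96.1 to 157 count equivalents on the B6 allele (median 120.5) and 747 to 1360 on the Cast allele (median 1220), at 3.25 ± 0.15, with unique hits at 4.78 ± 0.096. Its copy Rpl38-ps2 held 563 to 1220 on the Cast allele and under 0.1 on the B6 allele and in every F0 library. Rps6 was at 3.02 ± 0.33, with medians of 426 and 3080, and at 4.47 ± 0.15 on unique hits. Rpl27 (3.66), Rps13 (3.92), Rpl27a (2.67), Rpl15 (2.25) and Rpl10a (1.78) likewise had higher Cast alleles on both measures.

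Several of these had a copy that held the opposite allele or changed alleles from library to library. Rpl10a-ps1, all of whose 608 stretches occur in Rpl10a, held 1700 to 2630 count equivalents on the B6 allele and 3.56 to 14.3 on the Cast allele, and summing turned the difference of Rpl10a from 1.78 to -0.24. Gm9846, the copy of Rps27, held 2000, 2570, 2700, 2950 and 1490 on the B6 allele in 5 F1 libraries and 7.05 in F1 CastxB6 replicate 3, where its Cast allele held 2030. Gm10163, the copy of Rpl21, held 4080 on the B6 allele and 0.601 on the Cast allele in F1 CastxB6 replicate 1 but 1.6 and 3940 in F1 B6xCast replicate 3. No such switch was visible in Rpl37 or Rpl38, whose 6 libraries lay on the same side. With sums, 29 of 69 members had a called allelic difference, 14 higher and 15 lower, with 47.1% of all genes called, 23.6% in each direction.

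The difference between the F0 comparison and the allelic comparison, called the trans difference here, was mostly negative among the members called, meaning that the Cast side was lower between strains than between alleles. On count equivalents 26 of 69 members (37.7%) were called by limma, 3 higher and 23 lower, beside a background of 14%, 5.64% higher and 8.31% lower. On unique hits edgeR called 41, 10 higher and 31 lower, beside 16.8%, 5.61% and 11.2%. Unique hits fit a single gene in F0 but a single allele in F1, so on this measure the trans difference sets unlike counts against each other. Summed over sharing genes, 9 members were called, 4 higher and 5 lower, and the background was 13.6%, 5.88% and 7.75%. The median over members moved from -0.259 on count equivalents to -0.0273 on sums. Rps18 and Rpl7a had the widest values on count equivalents, at -4.32 ± 0.23 and -4.33 ± 0.17, with alleles at -0.02 and 0.22. Rpl6, Rpl34, Rpl35a and Rps3a were called in opposite directions on count equivalents and unique hits. The call of Rpl35a on unique hits was lost in each of 6 fits without a single library (0.48 to 0.59), namely without F0 Cast/EiJ replicate 2 or 3, F1 B6xCast replicate 2 or 3, or F1 CastxB6 replicate 1 or 2. Those lower on sums included Rpl38 (-4.00), Rps13 (-3.38), Rps6 (-2.92) and Rpl13 (-0.51), and the higher ones were Rpl37 (5.78), Rpl41 (2.25), Rps2 (2.10) and Rpl6 (0.55). For Rps2 the sign turned, from -1.87 on its own count equivalents.

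On the Cast side, 8 members were lower in both the F0 and the allelic comparison on both measures, and 0 were higher. These were Rps15, Rpl37, Rpl35a, Rps2, Rplp0, Rpl21, Rps3 and Rps15a. Over 12858 genes tested throughout, 11.2% were lower and 9.31% higher in this way, so the members' share in the lower direction was close to the background. Rps15, Rps3 and Rps15a, whose sums equal or nearly equal their own values, are described further. Rps15 was at 1970, 2760 and 2810 count equivalents in F0 C57BL/6J and 1050, 1570 and 1650 in F0 Cast/EiJ, without overlap. Its B6 allele was at 2050 to 3430 (median 3175) and its Cast allele at 1490 to 2290 (median 2140), at -0.55 ± 0.13 on count equivalents and -0.70 ± 0.091 on unique hits. Rps3 was at 2170, 2540 and 2900 against 1420, 1730 and 1760, and its alleles at 2150 to 2940 (median 2830) and 1660 to 2320 (median 2190), at -0.37 ± 0.088 and -0.41 ± 0.061. Rps15a was at 1450, 1610 and 1710 against 660, 1180 and 1270, and its alleles differed by -0.76 ± 0.19 and -1.49 ± 0.12. In Rps15 and Rps3 the trans difference was not called on either measure (-0.28 ± 0.24 and -0.26 ± 0.16 on count equivalents). Without a filter on low values the F0 calls of all 3 on count equivalents were lost, at the same log2 differences. Rps15 lost its F0 call when sums included genes sharing any stretch (-0.31), and Rps15a lost it without F0 C57BL/6J replicate 2 (-0.66) or 3 (-0.62) or F0 Cast/EiJ replicate 2 (-0.79). On unique hits the F0 call of Rps15a was lost without F0 C57BL/6J replicate 2 (-0.64) or 3 (-0.58).

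**Figure D5:**
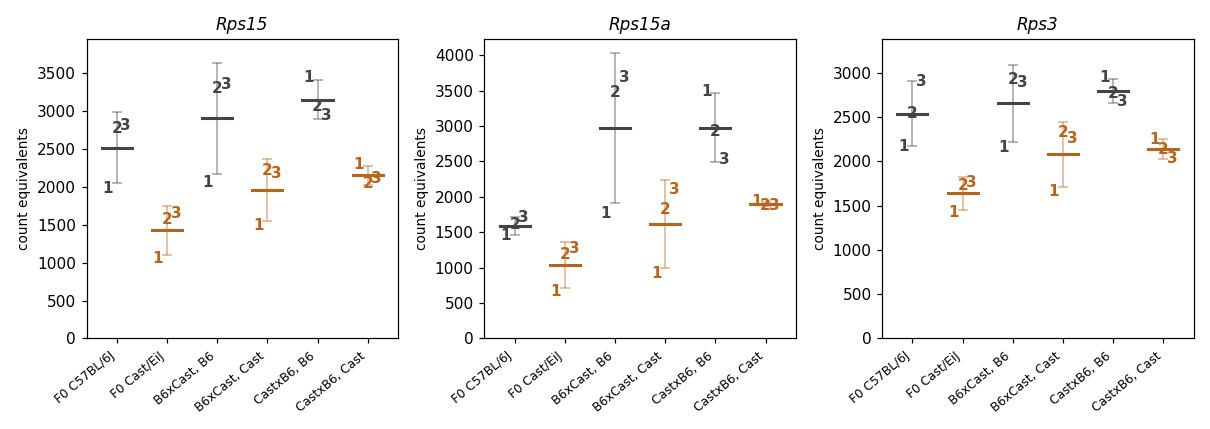
Count equivalents of Rps15, Rps15a and Rps3 in the F0 groups and on the B6 and Cast alleles of both F1 crosses. Numerals mark replicates 1 to 3, horizontal lines the group means and vertical bars the SD (n = 3); F0 Cast/EiJ lies below F0 C57BL/6J, and within each cross the Cast allele mean lies below the B6 allele mean.

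Parental origin was called for 2 members on count equivalents, beside 0.492% of all genes, and for 0 on unique hits, beside 0.298%. On unique hits 1 of 69 members, Rps9, had an unadjusted p under 0.05, and on count equivalents 5 had. Rpl18, a large subunit protein, was higher on the maternal allele by 1.96 ± 0.38 (limma adjusted p = 0.0202). Its B6 allele held 1170, 324 and 516 count equivalents in F1 B6xCast and 2200, 1700 and 2010 in F1 CastxB6, and its Cast allele 233, 1900 and 718 and 125, 234 and 116. F1 B6xCast replicate 1 went the other way from its group. The estimates rested on 5 to 18 unique hits per allele, and the call was lost without F1 B6xCast replicate 3 (1.90) or F1 CastxB6 replicate 1 (1.86) or 3 (1.86). Rps9 was higher on the maternal allele by 0.69 ± 0.15 (adjusted p = 0.0479), on 10 to 44 unique hits per allele, and its call was lost without F1 B6xCast replicate 1 or 3 or F1 CastxB6 replicate 2 or 3.

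Genes with a known second version or a special role were read one by one. Rpl22 and its homologue Rpl22l1 were not called between F0 strains (0.05 ± 0.09 and -0.04 ± 0.18), with Rpl22 at 1000, 1070 and 1210 against 1130, 1060 and 1210 count equivalents and Rpl22l1 at 87.8, 69.2 and 98.5 against 75.4, 79.5 and 91.3. Rpl7l1, a relative of Rpl7, had alleles that differed by -0.18 ± 0.07 (limma adjusted p = 0.0468), and this call was lost without any one of the 6 F1 libraries (-0.18 to -0.17). Rpl7 was at -0.31 ± 0.15 in F0 on count equivalents and was not called, and was lower at -0.50 ± 0.13 on unique hits (edgeR adjusted p = 0.00819). Rps27l, a p53 target, was at 31.9, 44.1 and 79.9 against 30.4, 29.1 and 59.2, with overlap. Rpl3l, which is specific to muscle, stayed at or below 2.18 count equivalents in every column, and Rpl10l and Rpl39l, which act in the male germ line, stayed at or below 0.495. Rpl36al, an autosomal relative of an X-linked gene, was at 318, 412 and 432 against 290, 404 and 479 in F0.

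Of the stalk proteins, Rplp0, the anchor, was lower in F0 Cast/EiJ (1840, 2440 and 2420 against 718, 903 and 973, -1.37 ± 0.14), with Gm8730 holding 799, 918 and 1050 in that strain and the sum at -0.25 ± 0.13. Rplp1 and Rplp2 were at 0.38 ± 0.20 and 0.16 ± 0.18 and were not called. Without F0 Cast/EiJ replicate 1, Rplp1 was called higher, at 0.58 on count equivalents and 0.53 on unique hits. Rpsa, which doubles as a laminin receptor, was at 3460, 3860 and 4170 against 2400, 2470 and 2880 (-0.57 ± 0.095), and at -0.15 ± 0.092 on the sum. Rps27a, which is made as a fusion with ubiquitin, was not called in any comparison on count equivalents. Rpl41 was equal between strains (2130, 2750 and 2800 against 2340, 3020 and 3250) but had a lower Cast allele (median 1018 against 4620, -2.09 ± 0.12), with unique hits at -0.92 ± 0.12. Rpl41 has no transcript in the annotation used for sharing, so its copies are not described. Rpl24, Rps19 and Rps20, which like Rpl38 are known from mutant mice with altered pigment or growth, were not called between the strains. Their F0 differences were 0.09 ± 0.084, -0.10 ± 0.13 and -0.26 ± 0.22, and of their Cast alleles that of Rps19 was called higher on count equivalents (0.35 ± 0.10, limma adjusted p = 0.00935). The Rps19 call was lost without F1 CastxB6 replicate 2 (0.30), and a higher Cast allele of Rpl24 was called without F1 B6xCast replicate 3 (0.56) or F1 CastxB6 replicate 3 (0.52).

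Members with -ps symbols mostly had low estimates. Because 32 of the 56 had a sharing gene, a low estimate does not show silence. Of the 56, 49 had a mean below 10 count equivalents and 7 were tested between F0 strains. Rps13-ps1 was at 190, 281 and 413 count equivalents in F0 Cast/EiJ and near 0 in F0 C57BL/6J, Rps26-ps1 at 69.6, 189 and 235 against at most 1.08, and Rpl15-ps2 at 128, 181 and 243 against 2.69, 13.2 and 2.57. Rplp2-ps1 ran the other way, at 62.8, 82.6 and 112 in F0 C57BL/6J against at most 5.84. Rps12-ps3 was at 614, 780 and 950 in F0 C57BL/6J and at 0.518, 0.00692 and 70.1 in F0 Cast/EiJ with no unique hit in any library, all of its stretches being shared. Of these 5 called copies, 0 were still called after summing. In the F1 libraries Rps12-ps3 reached 608 on the B6 allele, and the others stayed at or below 10.3 on either allele.

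Genes that serve the ribosome without belonging to the rule were called about as often as all genes. Of 50 listed genes for other ribosomal proteins, translation factors, ribosome assembly, RNA polymerase I and mTOR signalling, 9 were higher and 6 lower between F0 strains, beside 33.8% of all genes called, and the median log2 difference was 0.0563. Among 49 tested for alleles, 10 were higher and 12 lower, beside 47% of all genes. Among the larger F0 differences were those of the assembly factor Rpf2 (-0.70 ± 0.21), the polymerase I factor Rrn3 (-0.47 ± 0.092) and Eif6, which keeps subunits apart (0.45 ± 0.11). Fau, which encodes a small subunit protein, was alike in F0 (166 ± 58.2 and 169 ± 40.2) but had 73.0 ± 31.8 on the B6 allele and 1690 ± 54.8 on the Cast allele (4.63 ± 0.22, limma adjusted p = 3.3e-11), and has a sharing gene. Mtor was higher in F0 Cast/EiJ by 0.42 ± 0.085 and on the Cast allele by 0.26 ± 0.047. Of 76 mitochondrial ribosomal protein genes, 7 were higher and 13 lower in F0 Cast/EiJ, and of 36 proteasome genes 3 were higher and 2 lower, with medians of 0.0588 and 0.035.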

How the data were processed

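RNA-seq of whole retina was available for 12 libraries. Reads of 101 bp in pairs came from polyA RNA without strand information, from 1 lane per F0 library and 2 per F1 library. According to the study's methods the authors trimmed with Trim Galore 0.2.6, mapped with Bowtie 0.12.9 to Ensembl 67 transcripts (NCBI37) carrying the variants of the strain or, in F1, of both strains, and ran MMSEQ. The deposited signal, called count equivalents, was normalized by the authors across columns and is not whole. Deposited natural log expression gave FPKM-like levels, and its posterior SD was read but not tested. The deposited count of unique hits is raw. Of the deposited table of model fits, which holds the authors' own comparisons, only the flag for genes without exonic differences was used, and 36 columns were not used.

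Members and gene lists were chosen with earlier results of these data known. Count equivalents were tested as log2(value + 1) with limma 3.58.1 (trend), over autosomal genes with at least 10 in at least 3 of 6 F0 libraries. Unique hits were tested with edgeR 4.0.16 quasi-likelihood and TMM under the same minimum. Alleles, trans and parental differences came from 1 model over F0 columns and both alleles, for genes with exonic variants and on average 10 or more allele-specific hits in the F1 data. The library entered as a limma block (consensus correlation 0.1354) or an edgeR term. P-values were adjusted by Benjamini-Hochberg over all genes tested, calls were made at 0.05, and SE are those of the fits (R 4.3.3). The sources do not say how retinas were allotted to pools, so p-values measure the spread between libraries. Shared stretches of 101 bases were counted between GENCODE vM1 transcripts; 37205 of 37991 gene IDs were found there. Reads from overlapping genes cannot be told apart.

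Named members were those in paralog pairs, stalk genes, Rpsa, Rps27a, Rpl41 and known mutants; up to 5 called members with the largest differences per comparison, measure and direction with at least 100 count equivalents; those called in opposite directions or with the 4 widest gaps between measures; the 4 highest and lowest in level or in unique hits per count equivalent; up to 5 called for trans or parental differences; and members that are no subunit. Others were named after their values were seen, and some genes are not reported here. Alternatives were DESeq2 1.42.0, TMM or library totals, other filters and pseudocounts, within-library allele ratios in F1, a replicate block and each library left out. Sums over sharing genes and the joint removal of 3 libraries were added after seeing the data. On simulated data with 200 genes changed 2-fold, limma and edgeR each recovered 85.5% in the F0 design, and 93.5% and 90.5% in the allelic design. There, 11.4% of limma's calls and 3.72% of edgeR's were false. The simulated counts had a fixed dispersion and no reads shared between genes or alleles. These rates therefore do not describe the count equivalents of members with sharing genes.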

Additional observations from a re-analysis of the deposited data

Results flagged for a closer look

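Results listed here are those in which 2 contrasts of the same gene differed by a test of the difference itself. Among the smallest p-values for the F0 difference minus the allelic difference on count equivalents (limma) were those of Rpl7a (-4.33 on the log2 scale), Rps18 (-4.316), Rpl27a (-2.669) and Rpl15 (-1.897). In Rpl7a and Rps18 the strains differed and the alleles did not pass the test, while in Rpl27a and Rpl15 the alleles differed and the strains did not pass it on count equivalents. All 4 have sharing genes, and on sums over these genes 0 of the 4 were called.

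On unique hits (edgeR) they included those of Rpl38 (-4.547), Rpl13 (-3.294), Rpl9 (-3.192) and Rpl28 (-3.598). In each the Cast allele had more unique hits and the F0 strains did not pass the test. F0 unique hits fit a single gene and F1 unique hits a single allele, so these are unlike counts. Their allelic differences on count equivalents were 3.25, 0.51, -0.06 and 0.05 in this order. In Rpl38 the difference was large on both measures, but smaller on count equivalents than on unique hits (4.78).

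For parental origin on count equivalents, Rpl18 (1.964) and Rps9 (0.6901) had a higher maternal allele, and neither was called on unique hits (0.01 and 0.32). Single samples that stand apart were not tested for, since every group has 3 libraries.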

How the results depend on the processing

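Sums over genes sharing at least 10% of stretches, or any stretch, lowered the members' F0 and trans calls on count equivalents most. The F0 calls on count equivalents went from 26 to 7 under either sum, and trans calls from 26 to 9. Allelic calls went from 31 to 29 and 30 under these sums. They rose to 43 on within-library ratios of F1 alone and to 42 with the 3 libraries of lowest share left out. Under these sums the difference of Rpl29 turned from -0.97 to 0.4082 and 0.4069, and the trans difference of Rps2 from -1.87 to 2.105 and 2.057. Replicate numbers were not taken to pair the libraries in the main fits, and whether they do was not settled. Same-numbered F0 libraries correlated at 0.33, 0.03 and 0.14 and F1 libraries at -0.12, -0.11 and -0.05. The 0.33 of the F0 replicates numbered 1 was the highest among F0 pairs. F0 C57BL/6J replicate 2 correlated best with F0 Cast/EiJ replicate 3 (0.17), so not every library correlated best with its own number. A replicate block gave 49 F0 calls on count equivalents (15 higher and 34 lower, against 3 and 23) and 51 on unique hits (17 and 34, against 7 and 26), and 1 parental call. Calls over all genes rose with it too, from 4887 to 6376 of 14452 on count equivalents and from 5264 to 7074 of 13871 on unique hits. Without a filter, 3161 of 34964 genes were called between F0 strains, against 4887 of 14452. Parental calls on count equivalents fell from 2 to 1 with sums at 10% sharing and with the 3 libraries of lowest share left out, and ranged from 0 to 2 with single libraries left out. The members' mean share was 0.9107% of count equivalents and 0.621% of unique hits. Unique hits per count equivalent had a median of 0.3202 over all libraries, 0.4982 in F0 and 0.2216 in F1. Of 254 results for named members, 17 lost a call and 16 gained one in some fit without a single library, and 0 turned sign. DESeq2, TMM, library totals and pseudocount 5 moved no count of members called by over 1.5 times. The causes were not tested. Few reads fit a single allele in Rpl18 and Rps9, and how far this limits their allelic estimates was not tested.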
